A study of Mus musculus with 6 samples.

Results

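The genes described here are 10 transcription factor genes of B cells and plasma cells: Pax5, Ebf1, Pou2af1, Pou2f2, Bach2, Ikzf3, Spib, Irf4, Prdm1 and Bcl6. They were taken as a fixed list of names from the 21734 protein-coding genes of the GENCODE mouse annotation on GRCm39, and all 10 were found in it. Open chromatin was assigned to them by the position of the peak summit, the tallest point of a peak, which had to lie in the gene body or within 3 kb of one of the gene's annotated transcription starts. Summits within 3 kb of a start are called promoter peaks and summits in introns beyond that distance are called intronic peaks. Merging the 6 peak lists gave 62876 regions, of which 105 lay at the 10 genes: 75 intronic, 24 promoter and 6 exonic.

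ATAC-seq marks open DNA with a transposase that inserts sequencing adapters where nucleosomes are absent. The libraries were made from peripheral blood leukocytes of adult male C57BL/6J mice after lysis of red cells, without sorting of cell types. The 3 control libraries came from mice kept in normal oxygen. The 3 HADA libraries came from mice that had lived in a hypobaric chamber simulating high altitude and were then returned to normal oxygen, a phase called high-altitude de-acclimatization (HADA). The day of sampling of these mice is not given in the sources used here. Nothing in the labels states that each library is a separate mouse, so p-values measure the spread between these libraries.

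In the B lineage these factors act in sequence. EBF1 and PAX5 commit progenitors to the B cell fate and keep mature B cells in it, the octamer factor encoded by Pou2f2 and its coactivator encoded by Pou2af1 act at immunoglobulin and other B cell promoters, and BACH2 and BCL6 hold back the plasma cell programme. IRF4 and the repressor encoded by Prdm1, BLIMP-1, drive the turn to antibody secretion. Several of them also work in other leukocytes: Bach2, Ikzf3, Irf4, Prdm1 and Bcl6 are used by T cells, and Bcl6 is also known from myeloid cells. In leukocytes from whole blood, fewer cells of a type and less accessibility per cell cannot be told apart.

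The following 201-base windows are centred on the tallest intronic region of Pax5, Ebf1, Bach2, Ikzf3, Irf4 and Bcl6, and on a further intronic region of Bcl6 that was called in the HADA libraries and in no control library. They are shown because the first 5 were each called higher in HADA, while the pair from Bcl6 comes from the gene whose start region was lower in HADA. Sequence and coordinates are from GRCm39, each window lies wholly in an intron, and the 21 bases around the summit are in capitals.
Pax5 intron 5, chr4:44672805-44673005, + strand: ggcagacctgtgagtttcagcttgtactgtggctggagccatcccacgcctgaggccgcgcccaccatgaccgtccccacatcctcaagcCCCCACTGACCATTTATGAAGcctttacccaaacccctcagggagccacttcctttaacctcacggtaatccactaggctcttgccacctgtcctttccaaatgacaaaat
Ebf1 intron 6, chr11:44655769-44655969, + strand: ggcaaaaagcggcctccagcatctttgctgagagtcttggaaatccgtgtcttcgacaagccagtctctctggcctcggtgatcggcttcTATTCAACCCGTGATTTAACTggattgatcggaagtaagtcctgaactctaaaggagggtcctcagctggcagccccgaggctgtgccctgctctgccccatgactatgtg
Bach2 intron 1, chr4:32258165-32258365, + strand: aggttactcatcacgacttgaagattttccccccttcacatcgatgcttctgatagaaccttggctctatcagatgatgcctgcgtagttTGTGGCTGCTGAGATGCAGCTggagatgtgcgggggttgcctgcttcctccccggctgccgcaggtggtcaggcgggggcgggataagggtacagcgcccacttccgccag
Ikzf3 intron 3, chr11:98383941-98384141, + strand: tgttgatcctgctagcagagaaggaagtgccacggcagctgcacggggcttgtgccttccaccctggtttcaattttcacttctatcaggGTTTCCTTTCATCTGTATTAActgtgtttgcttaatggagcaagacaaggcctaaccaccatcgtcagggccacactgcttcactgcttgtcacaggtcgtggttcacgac
Irf4 intron 8, chr13:30945472-30945672, + strand: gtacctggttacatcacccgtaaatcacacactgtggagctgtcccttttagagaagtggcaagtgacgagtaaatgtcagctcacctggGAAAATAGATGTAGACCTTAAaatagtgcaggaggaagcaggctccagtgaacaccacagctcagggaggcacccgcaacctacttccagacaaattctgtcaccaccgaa
Bcl6 intron 1, called in all 6 libraries, chr16:23803237-23803437, + strand: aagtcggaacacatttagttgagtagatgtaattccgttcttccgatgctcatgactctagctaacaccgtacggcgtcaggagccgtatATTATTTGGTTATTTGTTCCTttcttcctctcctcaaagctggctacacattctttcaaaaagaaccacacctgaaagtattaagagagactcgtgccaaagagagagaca
Bcl6 intron 1, called in the HADA libraries, chr16:23801211-23801411, + strand: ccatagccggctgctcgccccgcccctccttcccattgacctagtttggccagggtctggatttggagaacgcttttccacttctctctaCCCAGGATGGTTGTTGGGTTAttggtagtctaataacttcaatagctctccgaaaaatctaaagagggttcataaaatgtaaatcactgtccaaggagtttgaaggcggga

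Each of these windows had a single exact copy of its 50 summit bases in the genome, as did 104 of the 105 regions. The exception, in intron 5 of Pou2f2, had 61 copies and is given no value below. Consensus letters of factors used in B cells were then searched on both strands within 100 bp of the 75 intronic summits. The EBF letters CCCNNGGGA were found at 2 of the 75 summits (2.67%, against 3.42% of all 17647 intronic regions), the octamer ATGCAAAT at 2 (2.67% against 1.97%), and the ETS-IRF letters GGAANNGAA at 3 (4% against 8.09%). The PU.1 letters GAGGAAGT were found at 4 summits (5.33% against 5.46%), the interferon response letters GAAANNGAA at 4 (5.33% against 7.61%), the RUNX letters TGTGGTT at 7 (9.33% against 9.66%) and the AP-1 letters TGANTCA at 3 (4% against 6.64%). The ETS-IRF and interferon response letters can overlap. Of the windows printed above, the Bcl6 window called in all 6 libraries held 1 match, the RUNX letters on the minus strand, and the others held none. No motif was found at more than 7 of the 75 summits.

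On the 21 main chromosomes, the peak lists held 34045 to 41475 peaks in the control and 44044 to 45799 peaks in the HADA libraries. Values are summit pileups, the number of reads stacked over a summit, solved from the deposited fold enrichment and p-value of each peak. The genome-wide background pileup, a measure of relative depth, ranged from 1.69 to 2.05 across controls and from 1.99 to 2.34 across HADA libraries, and the lowest called pileup was 7 to 9, so a peak below that height was not detectable. Control 3 stood apart from the other libraries: the summed peak level of 12 neutrophil marker genes (pileup over the median shared pileup of the library) was 63.3 in control 3, 26.6 and 19.5 in controls 1 and 2, and 15.7, 10.0 and 8.09 in the HADA libraries. For 10 monocyte marker genes the summed level lay between 14.3 and 15.96 in the controls and between 10.1 and 11.4 after HADA. For 20 B cell surface and signalling genes it came to 64.6, 57.3 and 69.3 in the controls against 89.3, 86.7 and 86.7 in the HADA libraries, and 14 of the 20 genes had a peak in control 3 against 20 of 20 in every other library. The genes in this sum differed: in control 3 Syk had 10 peaks, while Cd79a, Cd22, Blk, Cr2, Fcer2a and Ciita had 0. The sum is therefore not a measure of B cells alone. Control 3 thus had the highest neutrophil level, and the B cell genes with no peak there had one in every other library. The part of cell composition in the results below was not tested, and several of the results that rest on control 3 are also given without it.

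More intronic peaks were called at the B cell factors in HADA than in control leukocytes. The control libraries had 44, 32 and 23 intronic peaks at the 10 genes and the HADA libraries 66, 62 and 63, so the groups did not overlap. The means were 33 ± 10.5 and 63.7 ± 2.08 (SD, n = 3 each; two-sided exact permutation p = 0.1, the smallest that 3 libraries against 3 can give). Per 10000 peaks of the library, the means were 8.38 in control and 14.2 in HADA, and after thinning to the lowest genome background the HADA libraries kept 62, 61 and 62. With the same number of strongest peaks taken from every library, the counts were 36, 25 and 23 against 48, 46 and 47, which lowered the difference from 30.7 to 19 peaks without overlap of the groups. Without control 3 the control mean was 38.0. Intronic peaks were more numerous in every HADA library than in every control library for 6 of the 9 genes that had any (Pax5, Ebf1, Bach2, Ikzf3, Prdm1 and Bcl6), against 13.6% of the 6621 protein-coding genes with an intronic peak. No member had fewer, against 2.72% of those genes. Spib, the shortest gene, had no intronic peak.

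Promoter peaks rose less in number. The control libraries had 19, 17 and 15 promoter peaks and the HADA libraries 24, 22 and 23, or 17 ± 2 against 23 ± 1 (SD, n = 3 each; exact permutation p = 0.1). Here 2 of the 10 genes, Pax5 and Ebf1, had more in every HADA library, against a background of 5.98%, and 0 had fewer, against 1.2%. When a promoter was limited to 1 kb around a start, the groups overlapped and the means differed by 1 peak. The length of sequence covered by all peaks of the 10 genes was 46.4, 38.0 and 27.7 kb in control and 73.8, 71.9 and 76.1 kb in HADA libraries.

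**Figure D1:**
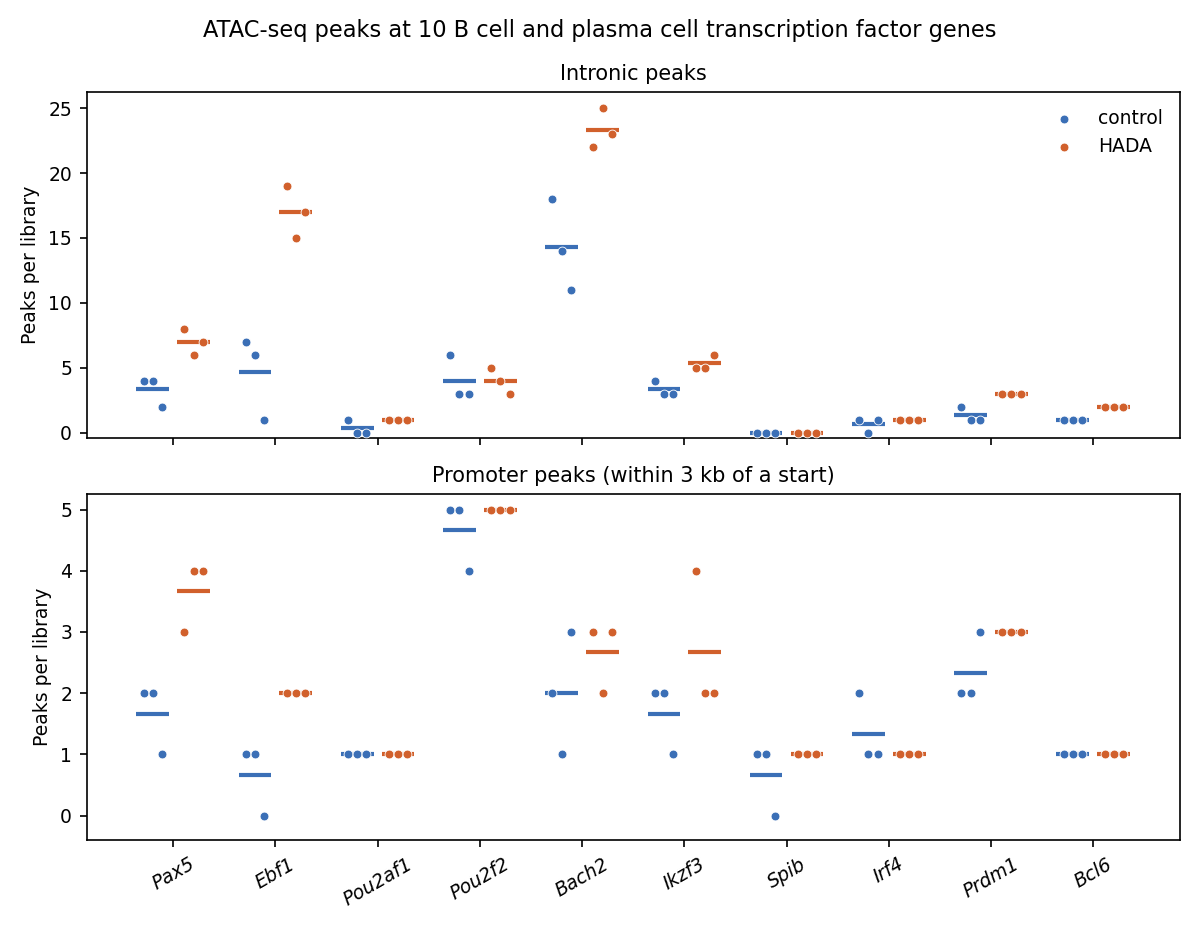
Number of ATAC-seq peaks per library (vertical axis) in introns (upper panel) and within 3 kb of a start (lower panel) of each of the 10 genes; each point is 1 library and each bar the mean of 3. Ebf1 and Bach2 carried most intronic peaks, with 15 to 25 per HADA library against 1 to 18 per control library, while the promoter counts of most genes overlapped.

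Regions called in all 3 libraries of one group and in none of the other were found on the HADA side. Of the 75 intronic regions, 14 (18.7%) were called in the HADA libraries alone, against 9.03% of all intronic regions, and 0 in the control libraries alone, against 2.06%. They lay in Ebf1 (5), Bach2 (4), Pax5 (2), Ikzf3 (1), Prdm1 (1) and Bcl6 (1). Of the 24 promoter regions 1 was called in the HADA libraries alone, 2.71 kb into Ebf1, against 4.82% of all promoter regions, and 0 in the control libraries alone, against 1.03%. A region with no peak in the lists has no value there, so these are differences in calling. The 14 intronic regions had pileups of 9 to 113 in the HADA libraries, and at 7 of them the local background in HADA libraries reached 5 or more reads. The local background of the control libraries at these regions is not known, since no control peak was called there. The number was 12 to 22 when 1 library was left out in turn, with 22 without control 1 and 14 without control 3.

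For heights, the 35 regions called in all 6 libraries were compared with limma on log2 summit pileup, centred on the median shared region and fitted with all 23970 shared regions. Of the 21 shared intronic regions, 9 rose and 0 fell at a Benjamini-Hochberg adjusted p under 0.05 (11 and 1 at an unadjusted p under 0.05, against 23.8% and 29.4% of all 23970), against 17.9% and 32.9% of the 4428 shared intronic regions of the genome. Of the 13 shared promoter regions, 6 rose and 1 fell, against 21.4% and 9.87% of 11883. The median log2 difference was 0.62 for the intronic and 0.64 for the promoter regions, against −0.25 and 0.11 for all shared regions of the class. Without control 3, which lacked a peak at 9 intronic and 6 promoter regions called in the other 5 libraries, 30 intronic and 19 promoter regions could be compared, of which 16 and 12 rose, against 22.2% and 20.6% of all regions of the class then compared. Without HADA 2 the numbers that rose were 4 and 4, against 6.38% and 5.93%, so calls were fewer across the genome too.

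These calls rest on the height of the summit and were lost when each height was taken relative to its surroundings. On the deposited fold enrichment, which divides the summit by the local background, limma called 0 of the 21 intronic and 0 of the 13 promoter regions higher in HADA, against 5.94% and 5.46% of all shared regions of the class. It called 1 intronic region lower (in intron 2 of Bach2, log2 −0.59, adjusted p = 0.0494; background 9.17%), 0 promoter regions lower (background 2.4%) and the Spib exonic region lower (log2 −1.19, adjusted p = 0.0239). At an unadjusted p under 0.05 it called 2 intronic and 0 promoter regions higher, and 1 intronic and 0 promoter regions lower. Of all 23970 shared regions, 8720 passed this limit in either direction. The local background itself differed: its median log2 over the genome background at the shared intronic regions was 1.77, 1.20 and 0.76 in the controls against 2.18, 2.43 and 2.27 in the HADA libraries. At the shared promoter regions it was 2.29, 1.72 and 1.28 against 3.40, 3.32 and 3.41. Its groups were apart at both (exact permutation p = 0.1), by 1.05 and 1.61, while over all shared intronic and promoter regions it differed by 0.24 and 0.49. The deposited fold had a log2 difference above 0 at 14 of the 21 intronic and 7 of the 13 promoter regions.

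**Figure D2:**
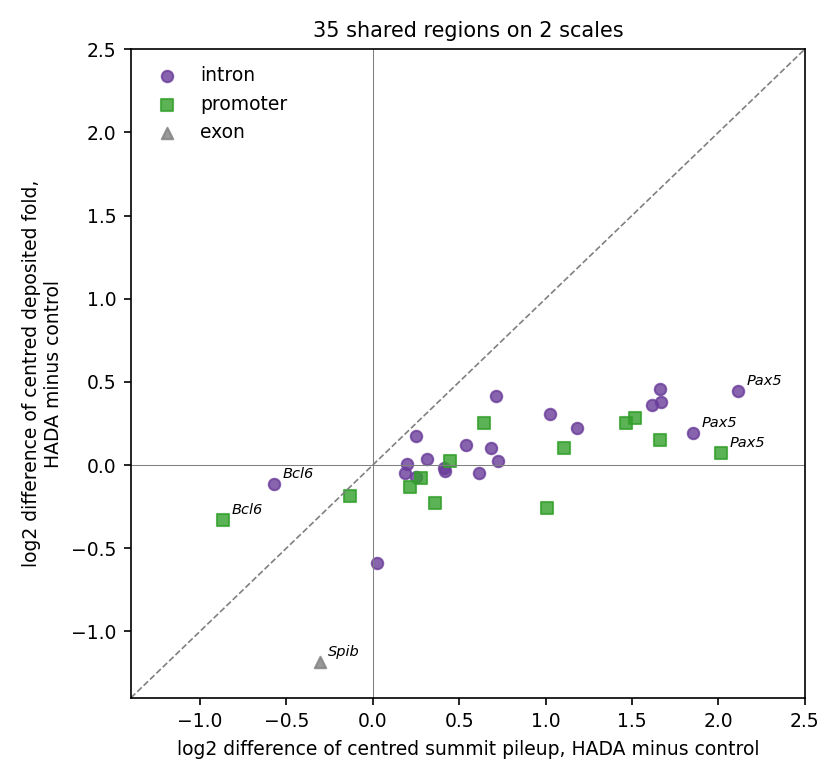
Difference between groups (HADA minus control, log2) for the 35 regions called in all 6 libraries, with summit pileup on the horizontal axis and the deposited fold over local background on the vertical axis; the dashed line marks equal differences. Most points lie below the line, with pileup differences up to 2.11 and fold differences of at most 0.46 in the intronic regions.

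Pax5 (chr4:44524757-44710487, minus strand), which encodes the factor that keeps B cells in their identity, showed the largest differences in centred summit pileup at shared regions. Its tallest intronic region, in intron 5, 37.6 kb from the canonical start, had pileups of 73, 36 and 13 in the controls against 252, 189 and 213 in the HADA libraries. All HADA libraries were above all controls, and control 3 was the lowest. The log2 difference was 2.11 ± 0.46 (SE), or 4.32-fold, with an adjusted p of 0.00926 (limma). A neighbour in the same intron, at 39.1 kb, had 59, 44 and 17 against 214, 174 and 205 (log2 1.85 ± 0.35, limma adjusted p = 0.00686). A further region of this intron, at 42.8 kb, had 67 and 53 in controls 1 and 2, no peak in control 3, and 166, 144 and 151 in HADA libraries. At these 3 regions of intron 5 the uncentred pileups of the HADA libraries were above every control with a peak. Among all shared intronic regions of the genome, 46.2% were higher in every HADA library.

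The other Pax5 regions followed. Its tallest promoter region, 615 bp from an annotated start inside the first intron of the canonical transcript, had 52, 33 and 13 against 175, 194 and 160 (log2 2.02 ± 0.39, limma adjusted p = 0.00712). Of the 2 intronic regions called in HADA alone, the one in intron 8, 146 kb from the canonical start, had pileups of 45, 52 and 63, and the one in intron 6 had 34, 44 and 35. Leaving out control 3 lowered the log2 difference of the tallest intronic region to 1.47 (adjusted p = 0.0013) and that of the promoter region to 1.48 (adjusted p = 0.000824). The log2 difference of the intronic neighbour at 39.1 kb was then 1.34.

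Ebf1 (chr11:44508138-44898918, plus strand), the pioneer factor that opens B cell chromatin, had the largest difference in intronic peaks: 7, 6 and 1 in control against 19, 15 and 17 in HADA libraries. Of its 21 intronic regions 13 were called in every HADA library and 1 in every control library. That one, in intron 6, 148 kb from the start, had 87, 59 and 14 against 194, 197 and 199 (log2 1.62 ± 0.51, limma adjusted p = 0.0305; 0.0595 when centred on shared promoter regions). Control 3 decided much of this size, since the log2 difference without it was 0.85 (adjusted p = 0.00322). The adjusted p was 0.0606 to 0.0938, no longer under 0.05, when any 1 HADA library was left out.

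Most of Ebf1 could be compared by calling alone. Its promoter peak, 182 bp before the canonical start, had 45 and 38 in controls 1 and 2, was missing in control 3, and had 175, 174 and 165 in HADA libraries. The second tallest intronic region, in intron 10, had 52 and 36 in controls 1 and 2 and 199, 150 and 163 in HADA libraries, again with no peak in control 3. Both showed uncentred pileups of HADA libraries above every control that had a value. In the genome 75.3% of shared promoter and 46.2% of shared intronic regions were higher in every HADA library. The intronic regions called in HADA alone were lower, such as 38, 30 and 25 in intron 8 and 23, 17 and 32 in intron 7.

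**Figure D3:**
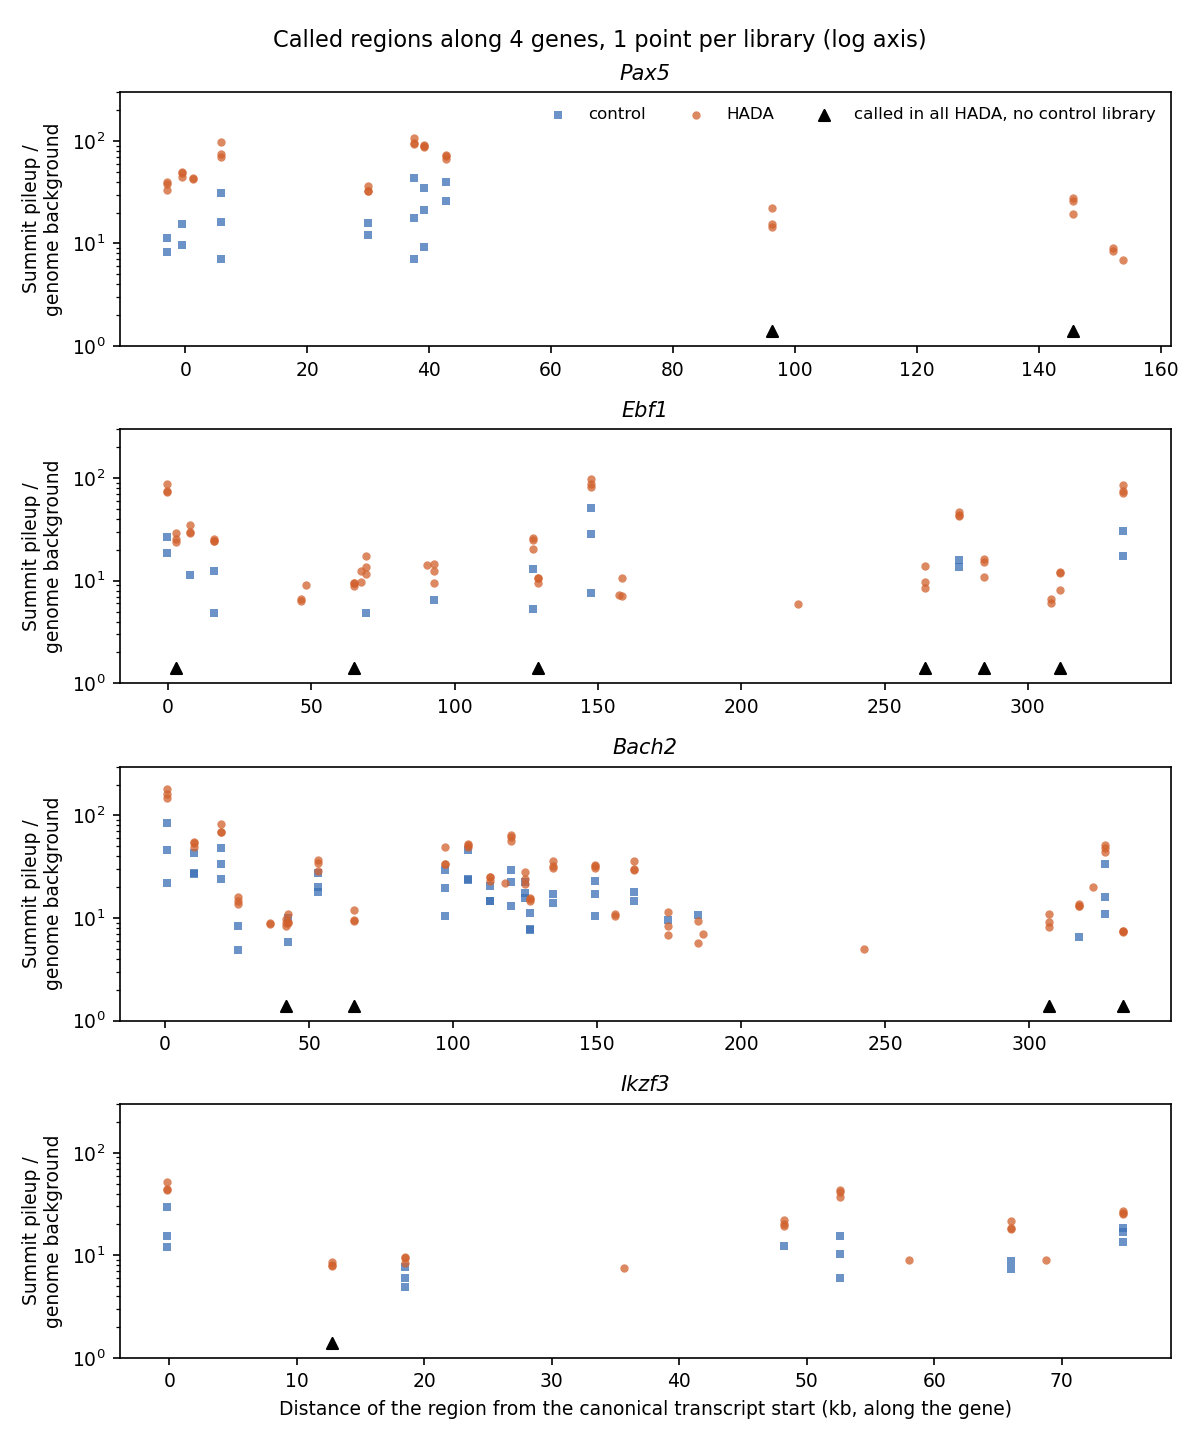
Summit pileup over the genome background (vertical, log axis) of each called promoter and intronic region of Pax5, Ebf1, Bach2 and Ikzf3 against its distance from the canonical start in kb (horizontal); squares are control and circles HADA libraries, 1 point per library with a peak, and triangles mark regions called in all 3 HADA and 0 control libraries. Points of HADA libraries lie above those of control libraries at most regions, and the regions called in HADA alone, 6 in Ebf1 and 4 in Bach2, are mostly among the lower ones.

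Pou2af1 (chr9:51124984-51151380), the B cell coactivator also known as OBF1, had 1 promoter region and 1 intronic region. The promoter region had pileups of 95, 78 and 34 in the controls against 323, 304 and 299 in the HADA libraries, a log2 difference of 1.66 ± 0.29 (limma adjusted p = 0.00634). Without control 3 the log2 difference was 1.23. The intronic region, in intron 1, had 12 in control 1, no peak in controls 2 and 3, and 43, 37 and 44 in HADA libraries. At both regions the uncentred pileups of the HADA libraries were above every control that had a value. Such an order was seen at 75.3% of shared promoter and 46.2% of shared intronic regions of the genome.

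Pou2f2 (chr7:24786769-24879151) encodes the octamer factor OCT2. Its intronic peaks numbered 6, 3 and 3 against 5, 4 and 3, and the groups overlapped. The promoter region at the canonical start had 59, 39 and 29 against 148, 118 and 140 (log2 1.11 ± 0.22, limma adjusted p = 0.0077). Its other 3 shared promoter regions, at other starts, did not pass the test, with log2 differences of −0.13 to 0.64. Of 2 shared intronic regions, the one in intron 5 had 25, 31 and 18 against 65, 61 and 57 (log2 0.71 ± 0.23, limma adjusted p = 0.0343; 0.0581 to 0.127 without any 1 HADA library, control 1 or control 3, and 0.106 when centred on shared promoter regions), and the tallest one, in an intron of a longer transcript upstream of the canonical start, had 46, 37 and 26 against 61, 68 and 66 (log2 0.25 ± 0.23, adjusted p = 0.391).

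Bach2 (chr4:32238714-32586108, plus strand), a repressor that delays plasma cell formation and is also used by resting T cells, carried the most regions of the 10 genes: 27 intronic, 2 promoter and 1 exonic. Its intronic peaks numbered 18, 14 and 11 in the controls against 22, 25 and 23 in the HADA libraries. The promoter region 0.853 kb after the canonical start had 142, 94 and 40 against 380, 360 and 336 (log2 1.52 ± 0.33, limma adjusted p = 0.00982, and log2 1.02 without control 3). All 10 shared intronic regions had log2 differences above 0, from 0.026 to 1.18, and 3 of them passed the test.

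The 3 that rose were in introns 1, 2 and 5. The tallest, in intron 1, had 82, 69 and 44 against 161, 164 and 156 (log2 0.72 ± 0.20, limma adjusted p = 0.0194; 0.0549 when centred on shared promoter regions). The one in intron 2, 120 kb from the start, had 50, 46 and 24 against 150, 123 and 128 (log2 1.18 ± 0.24, adjusted p = 0.00779, and log2 0.86 without control 3). Its close neighbour in the same intron, at 125 kb, had 38, 36 and 29 against 56, 56 and 49, a log2 difference of 0.026 ± 0.20 (adjusted p = 0.926) relative to the median region. The one in intron 5, 326 kb from the start and near a start of the antisense gene Bach2os, had 57, 33 and 20 against 113, 103 and 100 (log2 1.03 ± 0.30, adjusted p = 0.023). The intron 5 call was lost without any 1 HADA library (adjusted p = 0.0598 to 0.0839), and its log2 difference was 0.67 without control 3. The intron 1 call was lost without HADA 2 or HADA 3 (adjusted p = 0.0876 and 0.061).

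Ikzf3 (chr11:98355728-98436857, minus strand) encodes Aiolos, an Ikaros family factor of maturing B cells. Its start region had 50, 32 and 22 against 121, 88 and 99 (log2 1.01 ± 0.25, limma adjusted p = 0.014; 0.0518 without HADA 1 and 0.0514 without HADA 2). On the deposited fold its log2 difference was −0.26. Its tallest intronic region, in intron 3, had 26, 21 and 11 against 97, 87 and 84 (log2 1.32 without control 3 and 1.67 ± 0.28 with it, adjusted p = 0.00628). This was the smallest adjusted p among the members, while the other 2 shared intronic regions had log2 differences of 0.20 and 0.31 and did not pass. A region in intron 1 was called in HADA alone, at 20, 16 and 18.

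Spib (chr7:44175417-44181495, minus strand), an ETS factor of B cells and plasmacytoid dendritic cells, had 1 promoter and 1 exonic region. The promoter region, 2388 bp before the start and also within 3 kb of a start of Pold1, had 61 and 43 in controls 1 and 2, no peak in control 3, and 221, 195 and 225 in HADA libraries. The exonic region had 99, 86 and 115 against 158, 106 and 113, and its log2 difference of −0.31 ± 0.19 did not pass (limma adjusted p = 0.218).

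Irf4 and Prdm1 are the factors of antibody-secreting cells. Irf4 (chr13:30933209-30950959, plus strand), which is needed for both germinal centre entry and antibody secretion, had a start region with 58, 57 and 18 against 174, 159 and 166 (log2 1.46 ± 0.36, limma adjusted p = 0.0132). Its intronic region, in intron 8, had 43, 34 and 11 against 118, 144 and 110 (log2 1.66 ± 0.41, adjusted p = 0.0135). At both, control 3 had less than controls 1 and 2, and without it the log2 differences were 0.92 and 1.08 (adjusted p = 0.00101 and 0.00224). Both calls were lost without HADA 2 (adjusted p = 0.0542 and 0.0614).

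None of the 3 shared regions of Prdm1 (chr10:44313171-44404497, minus strand) passed the limma test. Its start region had 98, 100 and 86 in the controls against 181, 159 and 168 in the HADA libraries, a log2 difference of 0.21 ± 0.14 relative to the median region (limma adjusted p = 0.223), and of −0.13 on the deposited fold. The promoter region at the most upstream annotated start had 69, 66 and 48 against 146, 109 and 127 (log2 0.44 ± 0.16, adjusted p = 0.054). The intronic region, in intron 3, had 36, 30 and 20 against 70, 58 and 60 (log2 0.54 ± 0.22, adjusted p = 0.0769; 0.0424 without control 1 and 0.0136 as pileup over the genome background), and a low region at 16, 15 and 9 was called in HADA alone. The HADA pileups were higher at the 3 shared regions. Uncentred heights of this kind were common: the summit pileup was higher in every HADA library at 20 of the 21 shared intronic and 12 of the 13 shared promoter regions of the 10 genes, against 46.2% and 75.3% in the genome, and lower at 0 and 0, against 13.1% and 3.03%.

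Bcl6 (chr16:23783802-23807602, minus strand), the repressor of germinal centre B cells and follicular helper T cells, was the exception. Its start region had 225, 223 and 351 in the controls against 285, 200 and 187 in the HADA libraries. Pileups overlapped, and after centring on the median region HADA was lower by a log2 difference of −0.87 ± 0.24 (limma adjusted p = 0.0195), the only fall among the 35 regions. Control 3 had the highest value, and without it the log2 difference was −0.63 (adjusted p = 0.00577). The call was lost without HADA 2 (adjusted p = 0.0719) and without HADA 3 (adjusted p = 0.076). Without centring, as pileup over the genome background, the log2 difference was −0.49 (adjusted p = 0.0883).

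The introns of Bcl6 held 2 regions called in every HADA library. The first, 4.27 kb from the start, had 175, 121 and 231 against 202, 167 and 163 (log2 −0.57 ± 0.25, limma adjusted p = 0.088; 0.0191 without control 2). Without control 3, which had its highest value, the log2 difference was −0.33 (limma adjusted p = 0.106). Centred on shared promoter regions its log2 difference was −0.73 (limma adjusted p = 0.0314), and on the fold rank −0.02 (adjusted p = 0.957). The second, 6.29 kb from the start, was called in the HADA libraries alone, at 113, 105 and 82. It was the tallest of the 14 such intronic regions, and it sat in a local background of 27.5 to 35.4 reads in the HADA libraries. The local background of the controls is not known there, and a control library could hold reads without a peak being called.

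**Figure D4:**
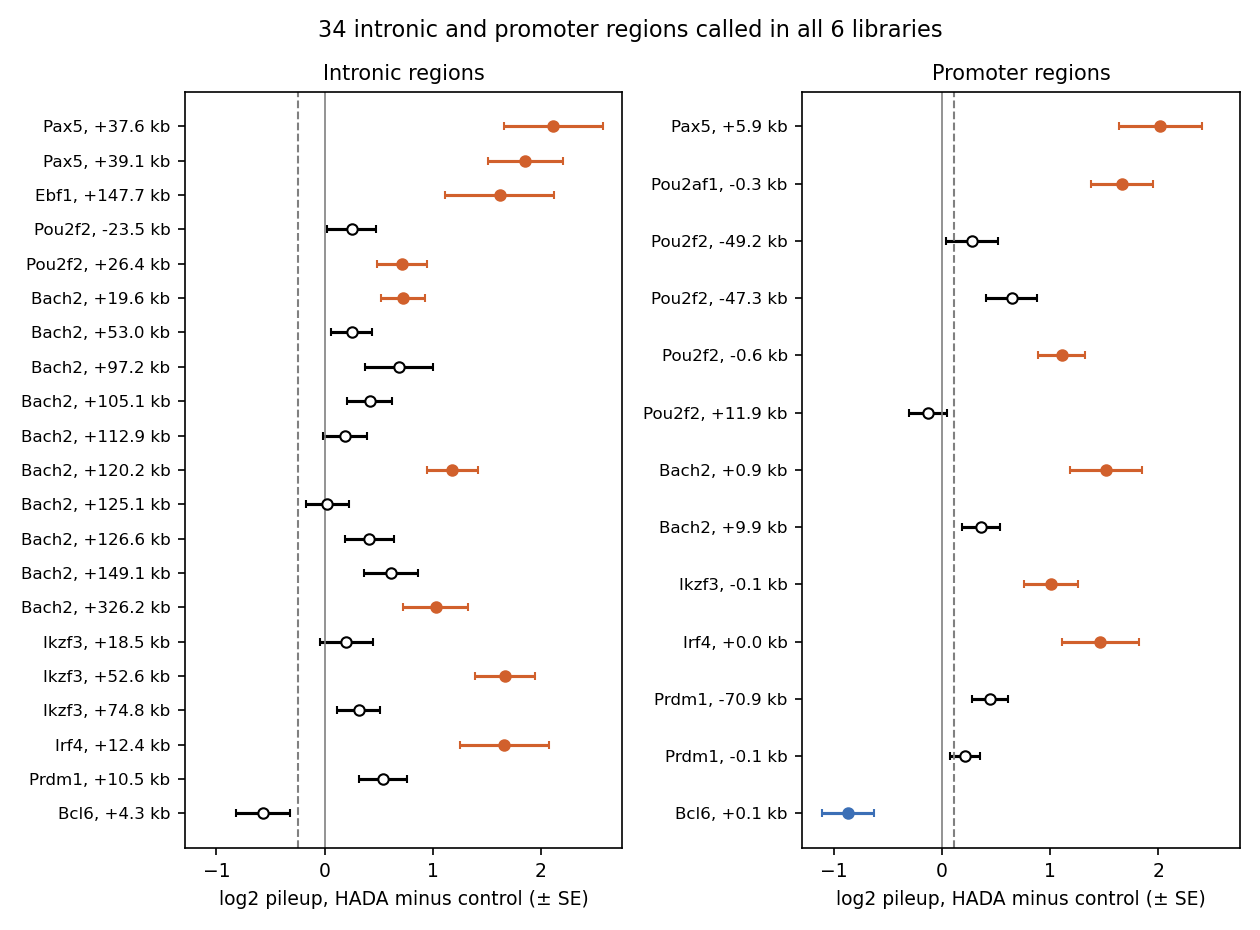
Difference in centred log2 summit pileup, HADA minus control, with its SE, for the 21 intronic (left) and 13 promoter regions (right) called in all 6 libraries, labelled by gene and distance from the canonical start; filled orange points rose and the filled blue point fell at an adjusted p under 0.05, and dashed lines mark the median of all shared regions of the class. The Pax5 regions have the largest differences and the Bcl6 regions the only ones below −0.5.

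Whether intronic and promoter regions differed in the size of the shift depended on the scale. Within a library, the mean log2 pileup of the 21 shared intronic regions minus that of the 13 shared promoter regions was −0.65, −0.68 and −0.75 in the controls against −0.73, −0.62 and −0.70 in the HADA libraries. Promoter regions were taller in every library, and the groups overlapped, with a difference of 0.0087 (exact permutation p = 0.9). On the deposited fold enrichment the difference was 0.12, and the groups did not overlap (exact permutation p = 0.1). Without control 3, over the regions shared by the other 5 libraries, the pileup difference was −0.14 and the groups did not overlap (exact permutation p = 0.1).

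At genes listed for the same lineage, 120 regions lay at 16 other B lineage transcription factor genes, and of their 44 shared regions 22 rose and 3 fell, against 18.4% and 24.5% of all shared regions. Ets1 alone gave 8 of the rises, from 11 shared regions, and the falls were at Tcf3, Spi1 and Ikzf1 (1 each). Their peaks numbered 75, 66 and 57 in the controls against 98, 94 and 99 in the HADA libraries. At the 20 B cell surface and signalling genes, 13 of 28 shared regions rose and 3 fell. The single shared region of Ms4a1, which encodes CD20, rose (log2 1.97). The falls were at Syk (2) and Cxcr5 (1). Cxcr5 had 9, 9 and 9 peaks in the controls against 7, 6 and 7 in the HADA libraries. At 10 plasma cell genes the peaks numbered 16, 12 and 9 in the controls against 17, 20 and 19 in the HADA libraries. By height, 0 of their 6 shared regions rose and 0 fell (limma; 0 and 0 at an unadjusted p under 0.05), Xbp1 had 1 peak in every library, and Jchain, the joining chain of secreted antibody, had none. Xbp1 is in both the plasma cell and the other transcription factor list.

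At marker genes of other cells, limma called 7 of 26 shared regions of T cell genes higher and 0 lower (10 and 0 at an unadjusted p under 0.05), against 18.4% and 24.5% of all shared regions (23.8% and 29.4% unadjusted). It called 0 and 0 of 2 of NK cell genes (0 and 0 unadjusted), with 5, 5 and 2 peaks in the controls against 7, 10 and 11 in the HADA libraries. Neutrophil genes had 0 higher and 11 lower of 12 (0 and 11 unadjusted), and monocyte genes 0 higher and 8 lower of 11 (0 and 9 unadjusted). At 9 housekeeping genes 1 of 14 shared regions rose and 1 fell. Most shared regions of neutrophil and monocyte genes were thus lower in the same HADA libraries. All lists were compared over the same 6 libraries.

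The genes whose intronic regions most resembled the members in their level over the 6 libraries were Plcg2, Mta3, Acvr1b, Adgrl2 and Wwox, each with a Pearson r of 0.998, among 1365 genes compared. The points are 6 libraries in 2 groups that share their depth, and 212 of the genes reached an r of at least 0.95, so this pattern was common.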

How the data were processed

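Reads were processed by the authors with Trimmomatic, Bowtie2 (GRCm39) and Picard, and MACS2 peaks were called in each library by itself. Versions, MACS2 options and any Tn5 shift are not given in the sources used here. The deposited lists give per peak a fold enrichment over local background (a ratio), −log10 p and −log10 q values, a whole-number score, and a summit. The deposited score was not used, and total read numbers were not analysed here.

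The summit pileup and local background were solved from the deposited fold, taken as (pileup + 1) / (background + 1), and the Poisson p-value, and gave back the deposited values for 100% of peaks. The lowest background of a library served as its genome background. A summed level of a marker list is the sum of its pileups over the median shared pileup. Peaks of the 21 main chromosomes that shared 1 bp were merged. Summits were placed by GENCODE M39. 0 peaks ended beyond a chromosome, and 22.1% of summits lay within 100 bp of a start, against 2.06% after a shift of 100 kb. Regions called in all 6 libraries were fitted by limma 3.58.1 (R 4.3.3; eBayes with trend) on log2 pileup centred on the median of each library; that median was 0.38 (log2) higher in HADA when divided by the genome background, and changes are relative to it. Adjusted p-values (Benjamini-Hochberg, 0.05) are over all 23970 regions. Single values were compared by two-sided exact permutation, which cannot go below p = 0.1 here. The fit and the solver were tested on simulated data.

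The members, gene lists and tests were chosen with earlier results of these data known. Regions named are each gene's tallest promoter and intronic region and at most 3 intronic regions that were called in one group alone or passed the test. Other regions, such as neighbours in the same intron and remaining shared regions, were added after their values were seen. The likeness of genes used genes with at least 3 intronic regions called in at least 3 libraries. Of the housekeeping list Hprt was not matched. The alternatives varied the peak threshold, the merging, the definition of a promoter, the scale and centring, and the libraries used.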

Additional observations from a re-analysis of the deposited data

How the results depend on the processing

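Numbers of intronic and promoter peaks kept their direction under each alternative run; leaving out 1 library in turn gave differences of 25.7 to 36.2 and 5 to 7 peaks. The intronic difference was 19 when libraries were cut to equal numbers of their strongest peaks, and 19.7 when peaks under a −log10 q of 10 were dropped. The scale changed the limma calls. With the fold rank 0 intronic and 0 promoter regions rose (3 and 0 at an unadjusted p under 0.05) and 0 of each fell. Of all 23970 shared regions, 1832 rose and 1396 fell on the fold rank, and 8695 passed unadjusted in either direction. With the log2 deposited fold 0 and 0 rose, 1 intronic and 0 promoter regions fell, and the medians were 0.10 and 0.024. Of all shared regions 1309 rose and 1716 fell on that fold. The local background values given with the results moved in the same direction as the summits. With pileup over the genome background, not centred, 14 intronic and 9 promoter regions rose, 0 of each fell, and the medians were 0.99 and 1.02. Of all 23970 shared regions, 7710 rose and 4216 fell without centring. Centred on shared promoter regions, 6 intronic regions rose and 1 fell, where 2705 of all 23970 shared regions rose and 7428 fell. The split of all calls in the genome went from 43.0% to 26.7% higher with this centring, against 64.6% without centring, 55.7% centred on housekeeping genes (added after seeing the data) and 56.8% with the fold rank. The causes of the other changes were not tested.

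Leaving out 1 library in turn, 4 to 16 intronic regions rose of 21 to 30 compared, and 4 to 12 promoter regions of 12 to 19. In each class 0 to 1 fell. Of all 24159 to 27421 regions compared, 1379 to 5446 rose and 2946 to 6426 fell, with the fewest without HADA 2 and the most without control 3. With 1 library left out in turn, 12 to 22 intronic regions were called in HADA alone. The within-library difference between intronic and promoter heights was −0.14 to 0.029 in the same way, −0.10 with the median over regions and 0.12 with the deposited fold, so its sign is not settled. The start region of Ikzf3 had a log2 difference of −0.22 with the fold rank and −0.26 with the deposited fold, and that of Prdm1 −0.18 and −0.13. Replicate numbers are shared by the groups, but same-numbered libraries did not deviate together (r of −0.08, 0.08 and −0.38). With the replicate number as a block, 8 intronic regions rose and 0 fell (the call in intron 5 of Pou2f2 was lost, limma adjusted p = 0.0647), 6 promoter regions rose and 1 fell, and the medians were 0.62 and 0.64. Of all 23970 shared regions, 3330 rose and 5757 fell with the block. Of 280 values for single regions under alternatives, 218 kept direction and side of the threshold, 54 were weaker, 4 stronger and 4 reversed. Heights could be compared in all 6 libraries at 35 of the 105 regions.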
